A study of Mus musculus with 2 samples.

Results

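The genes described here are 49 genes of skeletal muscle, which encode the filaments of the sarcomere, the membranes that couple excitation to contraction, and the enzymes that supply the fiber with energy. They were taken as a fixed list of gene symbols, chosen with earlier results of these data known. Every probe set (a group of short oligonucleotides that together read a transcript) annotated to a single gene of the list was used. Of the 49 genes, 46 were measured, by 66 probe sets, out of 12393 genes on the array. Neb, Mybpc1 and Mybpc2 had no probe set of their own here and were not analysed, and 2 further probe sets shared by Myh7 and Myh6 were not assigned to either gene.

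The tumors came from wild-type female FVB mice injected at 5 weeks of age with 15 mg of medroxyprogesterone acetate, a long-acting progestin, and then given 4 weekly gavages of 1 mg of the carcinogen DMBA. The control group stayed on standard chow, and the other group ate chow with 0.1% GW9662, an irreversible PPARγ inhibitor, from the day after the last DMBA dose. The labels name the tissue as mammary tumor, and their extraction protocol names mammary gland tissue. RNA of 5 mice was pooled for each diet before labelling. There is therefore 1 array per diet and no measure of variation between mice, so differences were described by their size and no p-value was computed.

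Striated muscle contracts when myosin heads of the thick filament pull on actin of the thin filament, under the control of calcium and the troponin complex. Most of these proteins exist as fast, slow, cardiac and embryonic isoforms from separate genes, so the set of isoforms found in a tissue tells which fiber types it holds. Mammary epithelium does not build sarcomeres. The signal is a fluorescence intensity in arbitrary units, and it allows a probe set to be compared between the arrays but not one gene with another. A gene was counted as lower when its brightest probe set reached a signal of 300 in either group and was at least 3-fold lower after GW9662. A signal below 100 was treated as the floor, so a fold against it is a lower bound, the brighter signal divided by 100, and no fold is given when both signals were below 100. Olfactory receptor genes, taken as a gauge of background, read no higher than 25.8 on either array.

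Of the 46 measured muscle genes, 12 were at least 3-fold lower after GW9662, or 26.1%, against 1.31% of all 12393 genes. These were 8 of 13 genes of fast muscle fibers and 4 of 20 genes that fiber types share. Genes of slow, cardiac and embryonic muscle were below the floor on both arrays, with the exception of Casq2. None of the 46 was at least 3-fold higher, against 0.105% of all genes. The 12 genes were Myl1, Mylpf, Myh1, Myh4, Acta1, Tnnt3, Tnni2, Tnnc2, Pvalb, Ckm, Mb and Eno3. They were all of the muscle genes that reached 300, and each did so on the control array alone, so the minimum itself fixed the direction of their difference. Among all 6053 genes that reached 300 on either array, 2.68% were at least 3-fold lower. Read by probe set, 13 of 66 were lower, against 1.06% of all probe sets with a single gene. In RNA from whole tumors, fewer muscle fibers and less RNA per fiber cannot be told apart.

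**Figure D1:**
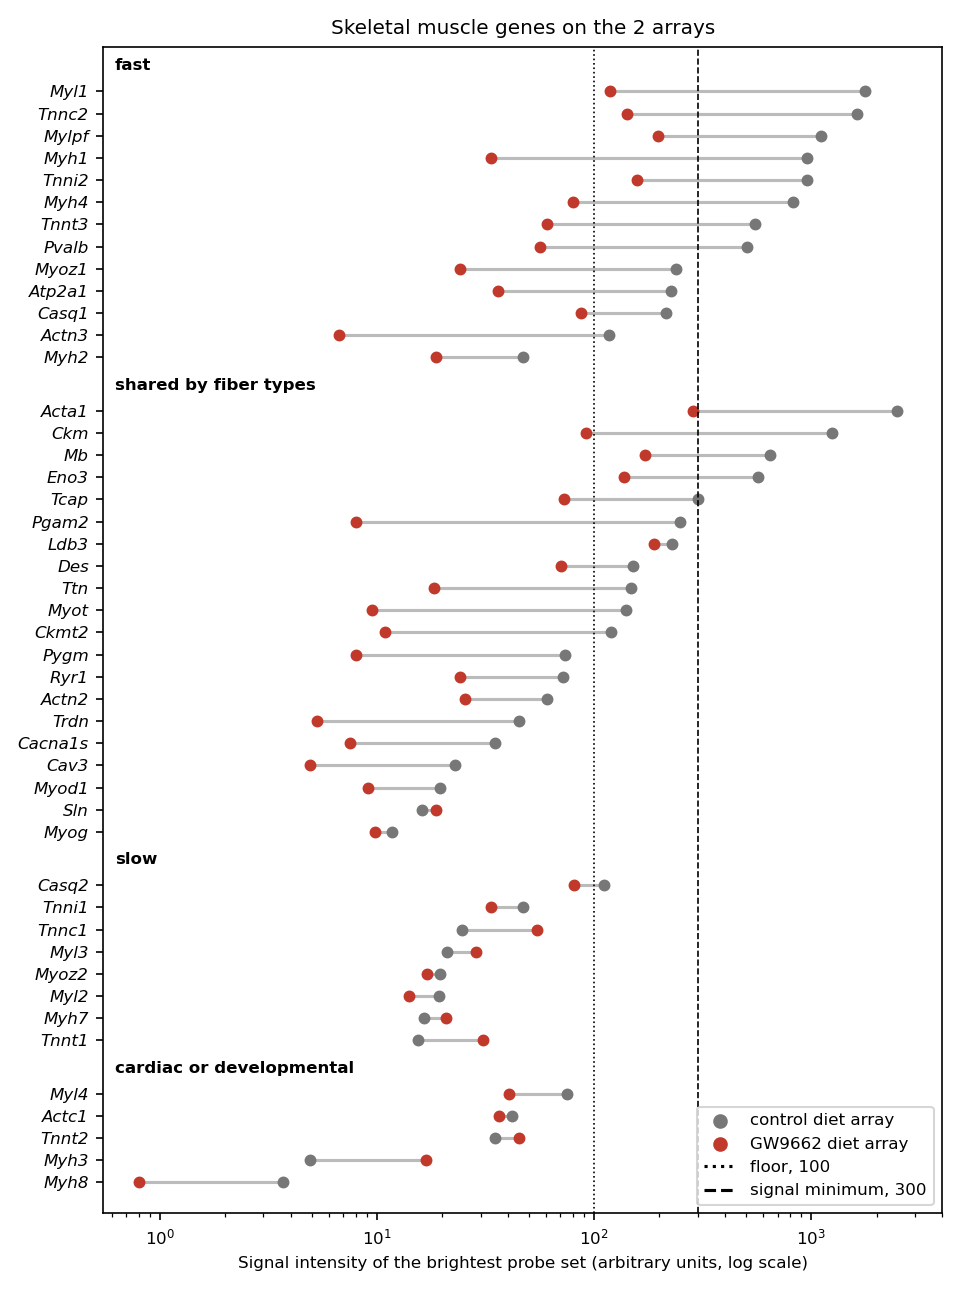
Signal of each of the 46 measured muscle genes at its brightest probe set, on a log scale, grouped by fiber type, in gray for the control diet and in red for GW9662. The dotted line marks the floor of 100 and the dashed line the signal minimum of 300. Of the 13 fast genes 12 lie above the floor on the control array, while 1 of 8 slow genes and 0 of 5 cardiac or developmental genes do.

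The start sites of 4 genes are shown because they set side by side genes that were lower (Acta1, Ckm and the fast troponin C gene Tnnc2) and the slow troponin C gene Tnnc1, which was below the floor on both arrays. Each sequence is the 250 bases before the RefSeq start site in the mouse assembly GRCm38.p6, read 5′ to 3′ in the direction of transcription. Capitals mark matches to the E-box CANNTG, the motif bound by MyoD and myogenin, and to the CArG box, the motif bound by serum response factor.

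Acta1, chr8:123894776-123895025, minus strand: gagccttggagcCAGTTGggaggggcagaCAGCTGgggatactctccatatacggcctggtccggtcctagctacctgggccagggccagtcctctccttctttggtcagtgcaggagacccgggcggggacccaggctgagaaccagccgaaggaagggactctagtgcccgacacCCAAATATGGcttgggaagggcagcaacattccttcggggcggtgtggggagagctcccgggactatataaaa

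Ckm, chr7:19410844-19411093, plus strand: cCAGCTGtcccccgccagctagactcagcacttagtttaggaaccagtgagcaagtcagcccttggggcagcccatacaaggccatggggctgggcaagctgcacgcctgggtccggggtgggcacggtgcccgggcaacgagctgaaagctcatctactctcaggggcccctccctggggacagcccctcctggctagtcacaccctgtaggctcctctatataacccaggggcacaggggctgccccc

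Tnnc2, chr2:164779735-164779984, minus strand: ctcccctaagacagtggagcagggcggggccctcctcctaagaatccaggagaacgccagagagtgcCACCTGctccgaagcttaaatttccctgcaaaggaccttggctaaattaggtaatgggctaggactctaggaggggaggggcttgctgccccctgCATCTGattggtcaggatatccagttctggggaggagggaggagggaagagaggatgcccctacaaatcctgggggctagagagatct

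Tnnc1, chr14:31208062-31208311, plus strand: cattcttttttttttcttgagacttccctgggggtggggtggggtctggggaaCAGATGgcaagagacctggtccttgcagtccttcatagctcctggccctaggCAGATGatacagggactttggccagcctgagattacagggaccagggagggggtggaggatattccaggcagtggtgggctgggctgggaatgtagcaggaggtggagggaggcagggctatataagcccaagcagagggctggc

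The Acta1 sequence held 2 E-boxes and a CArG box that starts 73 bases before the start site, Ckm held 1 E-box, and Tnnc2 and Tnnc1 each held 2 E-boxes. No match to the motif of MEF2, a partner of the MyoD family, was in these 4 sequences. Start-site sequences were found for 39 of the 49 genes, 47 sequences in all. An E-box, counted on both strands, was in 83.0% of these and in 66.2% of all 32851 sequences of the same length. A CArG box was in 6 of the 47, or 12.8%, against 1.47% of all, and a match to the MEF2 motif was in 8, or 17.0%, against 2.92% of all. These motifs can overlap one another. By fiber type, an E-box was in 8 of 11 fast and 12 of 12 slow sequences, and the MEF2 motif was in 3 of 11 and 2 of 12. A match describes the letters of this window and is not evidence that a factor binds there.

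Genes of the thick filament, the myosin motor and its light chains, were lower for 4 fast isoforms and below the floor for every slow, cardiac or embryonic isoform. Myl1, an essential light chain of fast myosin, read 1766.0 in control tumors and 118.5 after GW9662, a 14.9-fold lower signal. Mylpf, the phosphorylatable light chain of fast fibers, was 5.62-fold lower (1104.1 and 196.6). The fast heavy chains Myh4 (826.5 and 80.1) and Myh1 (958.3 and 33.4) were at least 8.27-fold and at least 9.58-fold lower. Both belong to a family of very similar genes. A second Myh1 probe set read nearly the same values (932.9 and 28.0), while another lay at background on both arrays (1.0 and 2.0). Fast oxidative and slow fibers use other heavy chains, and these read below the floor. Myh2, the heavy chain of fast oxidative fibers, had 46.9 and 18.7, below the floor on both. The slow heavy chain Myh7 had 16.5 and 20.8, and the slow light chains Myl2 (19.3 and 14.0) and Myl3 (21.1 and 28.5) were also far below 100. The isoforms of development did not reach the floor either. The heavy chains of embryonic and newborn muscle, Myh3 (4.9 and 16.8) and Myh8 (3.7 and 0.8), lay within the range of the olfactory receptors. Myl4, the light chain of atrium and embryonic muscle, had 75.1 and 40.6. Of the 11 thick filament genes, 4 were lower by the rule and the other 7 were below 100 on both arrays.

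In the thin filament, each fast troponin subunit was lower and each slow or cardiac subunit was below the floor. Acta1, the actin of skeletal muscle, was 8.74-fold lower (2488.4 and 284.8). Tnnc2, the calcium sensor of fast troponin, was 11.4-fold lower (1620.5 and 142.0). Tnni2, the inhibitory subunit of fast troponin, was 6.04-fold lower (955.5 and 158.2), and its second probe set was at least 2.66-fold lower (266.1 and 58.9). The troponin subunits work as a complex, and the remaining one moved the same way. Tnnt3, which anchors fast troponin to tropomyosin, was at least 5.50-fold lower (550.0 and 60.8). The slow counterparts had 24.6 and 54.6 for Tnnc1, 47.2 and 33.5 for Tnni1, and 15.4 and 30.8 for Tnnt1. Cardiac actin, Actc1 (41.9 and 36.6), and cardiac troponin T, Tnnt2 (34.8 and 45.3), which developing skeletal muscle also makes, were also below 100 on both. Values below the chosen floor were given no order here, so the higher GW9662 readings of Tnnc1 and Tnnt1 were not read as a difference.

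Genes of the Z-disc and the scaffold that holds the filaments in register did not reach 300. By the rule 0 of 9 were lower, 7 had a control signal of 100 or more, and the other 2 were below 100 on both arrays. Tcap, the titin cap at the Z-disc, lay just under the signal minimum with 299.9 in control tumors and 72.3 after GW9662. The muscle gene just inside the minimum was Pvalb, at 506.9. Myoz1, a calcineurin-binding protein of fast Z-discs, was at least 2.39-fold lower (239.4 and 24.1), and its slow counterpart Myoz2 was below the floor (19.6 and 17.0). Ttn, the giant elastic protein titin, had 148.6 and 18.4. After GW9662, titin read within the range of the olfactory receptors, and so did the 2 genes that follow. Myot, an actin cross-linker of the Z-disc, had 140.6 and 9.5. Actn3, the α-actinin of fast fibers, had 117.7 and 6.7. For these 3 genes the bounds stay under 1.5-fold, because the control signal was itself close to the floor. Ldb3, a PDZ protein of the Z-disc, was only 1.22-fold lower at its brightest probe set (229.3 and 188.2), but a dimmer probe set had 102.2 and 19.3. The muscle intermediate filament gene Des, which smooth muscle also expresses, had 151.3 and 70.7. The α-actinin of all striated fibers, Actn2, had 60.7 and 25.4.

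Of the genes that couple excitation to contraction, 1 of 9 was lower by the rule. Pvalb, the calcium buffer of fast fibers, was at least 5.07-fold lower (506.9 and 56.3). Atp2a1, the calcium pump of the fast sarcoplasmic reticulum, was at least 2.27-fold lower (226.8 and 35.9), and Casq1, its calcium store protein in fast fibers, was at least 2.13-fold lower (213.5 and 86.6). Both of these fast genes were above the floor in control tumors and under it after GW9662. Casq2, the calsequestrin of slow and cardiac muscle, was the only slow gene above the floor, with 111.6 in control tumors and 80.8 after GW9662. The channels and anchoring proteins of the muscle membranes did not reach the floor. The release channel Ryr1 (71.6 and 24.2), the voltage sensor Cacna1s (34.9 and 7.5), triadin, Trdn (45.3 and 5.3), and the muscle caveolin Cav3 (22.8 and 4.9) were below 100 on both arrays, as was Sln, a peptide inhibitor of the calcium pump (16.1 and 18.6).

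Of the 6 genes of energy and oxygen supply, 3 were lower by the rule. Ckm, the creatine kinase of the muscle cytosol, was at least 12.5-fold lower (1246.5 and 91.7). Mb, the oxygen-binding protein myoglobin, was 3.77-fold lower (646.4 and 171.6) and Eno3, the muscle enolase, was 4.18-fold lower (571.2 and 136.6). Mb is also read by a probe set that lay at background on both arrays (0.8 and 3.9). The remaining enzymes lay under the signal minimum. Pgam2, the muscle phosphoglycerate mutase, was at least 2.48-fold lower (247.7 and 8.0). Ckmt2, the creatine kinase of muscle mitochondria, had 119.5 and 10.9, and Pygm, the muscle glycogen phosphorylase, had 73.2 and 8.0. The myogenic transcription factors Myod1 (19.6 and 9.1) and Myog (11.7 and 9.8), which drive muscle precursors to differentiate, were within the range of olfactory receptors on both arrays. So were Myf5, Myf6, Pax3 and Pax7, whose highest signal was 11.3.

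The fiber types differed mainly in which genes were detected on the control array. A control signal of 100 or more was read for 12 of 13 fast genes, for 1 of 8 slow genes and for 0 of 5 cardiac or developmental genes. The summed signal of the fast genes was 9132.1 in control tumors and 1017.9 after GW9662. The slow genes summed to 275.3 and 280.0, and the cardiac or developmental genes to 160.4 and 140.1. Since slow genes other than Casq2 were below the floor on both arrays, the data give no fold for them, and whether slow and fast genes differed in their response cannot be read here. Probe sets differ in how strongly they respond, so a dim one does not show that its gene was silent. Below the floor on both arrays were 22 of the muscle genes, and no direction was read from them. The highest signal of 13 of these was above the range of the olfactory receptors, so the floor is a cautious one.

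The size of the difference was not the same for each muscle gene. For the 7 genes that read 100 or more in each group, the fold ran from 3.77 for Mb to 14.9 for Myl1, with an SD of 0.74 on the log2 scale. When a gene was read by several probe sets with a mean signal of 100 or more, as 2639 were, the log2 ratios of its probe sets differed with a pooled SD of 0.36. Ckm, whose signal after GW9662 was below 100, is not among the 7. Neither SD holds variation between arrays or mice, so whether muscle genes differ in the size of their response was not tested.

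**Figure D2:**
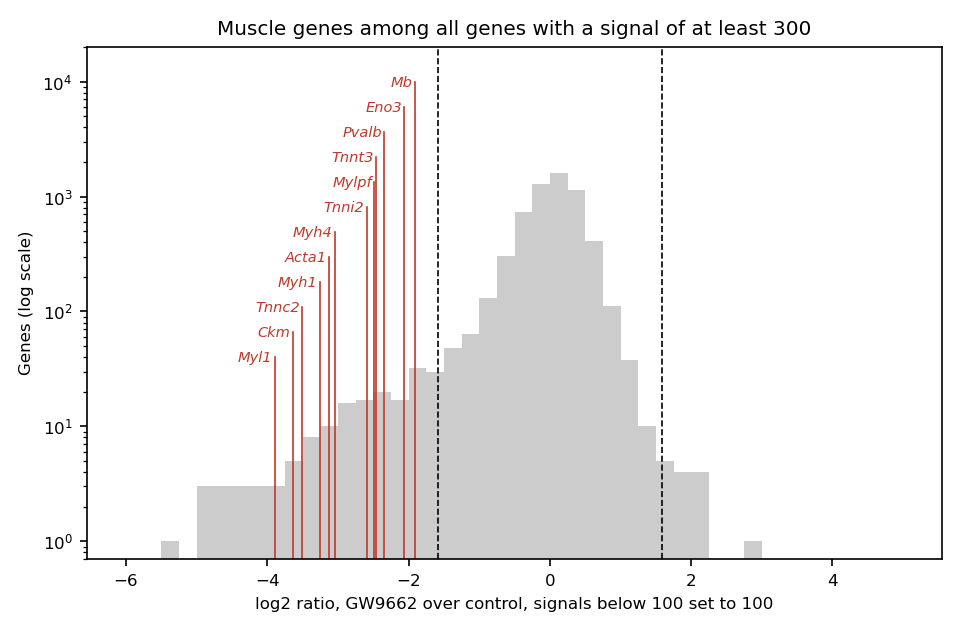
Number of genes (log scale) by log2 ratio of GW9662 over control, in bins of 0.25, for the 6053 genes that reached 300 in either group, with signals below 100 set to 100. Red lines mark the 12 muscle genes that reached this signal, with heights set only to space the names, and dashed lines mark 3-fold differences. The muscle genes lie between log2 ratios of -3.90 (Myl1) and -1.91 (Mb), where the counts of genes are low.

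Counterparts of these proteins that other tissues use mostly differed little between the arrays. Most are isoforms, but Calr and Vim, set beside Casq1 and Des, are other proteins. Of 18 such counterparts that reached 300, 14 were within 1.5-fold, and the median log2 ratio of the 18 was -0.07. Most genes differed little as well. Over all 6053 genes that reached 300 the median was 0.05, and 97.1% differed by less than 3-fold. A small difference is therefore not particular to the counterparts. Not every pair allows a comparison, since the bounds of Actn3 and Ckmt2 are under 1.5-fold and Pygm and Cav3 have no fold. The cytoplasmic actins Actb (9738.0 and 8979.9) and Actg1 (11095.4 and 10984.5) and the smooth muscle actin Acta2 (9558.9 and 9275.4) lay close together, 1.08-fold lower for Actb, beside 8.74-fold for Acta1. Non-muscle myosin Myh9 (5461.2 and 5885.8) was close to level, as was the light chain Myl6 (409.5 and 404.2). The widely expressed calcium pump Atp2a2 had 3649.6 and 3692.4, beside 226.8 and 35.9 for Atp2a1. None of these isoforms differed by an amount near that of its muscle counterpart. Within 1.5-fold were also Actn1 (2266.6 and 2964.4), Actn4 (4710.3 and 4425.6), Myl9 (4449.2 and 4322.7), Myl12a (6223.1 and 7265.7), Calr (5859.0 and 5376.4) and Vim (6756.3 and 6262.8). Isoforms of the energy enzymes varied more. The brain-type creatine kinase Ckb was itself 2.39-fold lower (872.3 and 364.9), Pgam1 was 1.25-fold lower (3550.0 and 2831.8), and the mitochondrial Ckmt1 had 358.7 and 407.5. The liver glycogen phosphorylase Pygl was 6.73-fold lower (1554.8 and 230.9), the only counterpart of the 18 past the rule. The brain form Pygb was 1.62-fold lower (1338.2 and 827.6). Cav1, the caveolin of fat and endothelium, was 1.74-fold lower (5232.8 and 3014.0).

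**Figure D3:**
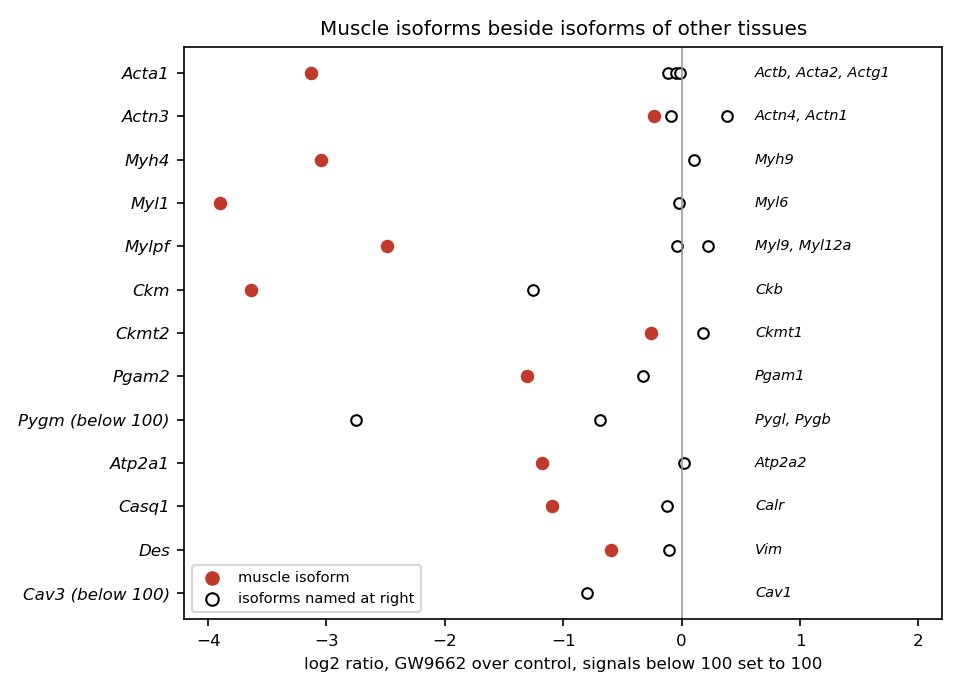
Log2 ratio of GW9662 over control, with signals below 100 set to 100, for muscle isoforms (red) and their counterparts in other tissues (open circles). The counterparts are those that reached 300, named at the right in order of their ratio. Pygm and Cav3 were below 100 on both arrays and have no red point. The red points of Acta1, Myh4, Myl1, Mylpf and Ckm lie below -2, and 14 of the 18 open circles lie within 1.5-fold of level. The median over all genes that reached 300 was also near level, at 0.05. The other red points lie from -1.31 (Pgam2) to -0.24 (Actn3). These, Myh4 and Ckm are bounds, since their GW9662 signal was below 100.

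A wider list of 72 muscle genes that were not among the 49 gave fewer differences. Of 54 measured, 3 were at least 3-fold lower, or 5.56%, beside 1.31% of all genes, and 36 were below 100 on both arrays. Cox8b, a cytochrome oxidase subunit of muscle and brown fat, was at least 11.4-fold lower (1136.0 and 9.1). Fabp3, the fatty acid binding protein of muscle and heart, was at least 6.96-fold lower (696.2 and 33.2). The study counts Cox8b and Fabp3 among metabolic genes lowered by GW9662, and marks Fabp3 as holding a PPAR response element. Its list also holds Eno3, Pgam2, Pygl and the cytochrome oxidase subunit Cox6a2, with the same mark for Pgam2 and Cox6a2. The control signals it prints for Pgam2 and Cox6a2 are above 300, whereas the deposited values used here are below it. Pdlim3, a Z-disc protein that smooth muscle also makes, was 3.45-fold lower (926.2 and 268.3). The tropomyosins Tpm1 (3003.3 and 3036.5), Tpm2 (4458.7 and 3926.2) and Tpm3 (3520.8 and 3213.9), which many cell types express, and the ubiquitin ligase subunit Fbxo32 (1138.1 and 1095.8) were close to level. The highest signal of 6 genes lay between 100 and 300. Of these Cox6a2 (214.1 and 49.8), Smpx (150.5 and 18.5) and Cox7a1 (232.2 and 150.3) read lower after GW9662, and Chrnb1 (192.4 and 256.3), Phka1 (73.4 and 122.4) and Ankrd1 (39.3 and 121.8) read higher. Dmd, which encodes dystrophin and has isoforms outside muscle, had a 1.60-fold higher signal after GW9662 (319.2 and 511.2), short of the rule.

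Markers of other cell types were read beside these values. All 11 measured heart genes were below 100 on both arrays. Smooth muscle and myoepithelial genes summed to 31786.8 in control tumors and 30059.8 after GW9662, with 0 of 13 lower by the rule and none at 0. Of the 13, 10 read lower, by at most 1.80-fold (Cnn1, 1099.6 and 610.9), and 3 read higher. Luminal epithelial genes, which mark the mammary epithelium of the labelled tissue, summed to 49160.5 and 49328.5 with 0 of 10 lower by the rule. Of these, Elf5 was 2.03-fold lower (4138.4 and 2040.0), and 6 of the 10 read higher. Adipocyte genes were also lower, 13 of 13 by the rule against 1.31% of all genes, with a sum of 65455.9 and 7987.1. Most of these markers, Pparg among them, are in the study's own list of metabolic genes lowered by GW9662. That list came from the same arrays, so the count of adipocyte genes is not independent of it. Of the brown fat genes, Cidea was at least 7.10-fold lower (710.2 and 45.3), and it was the 1 of 6 that was lower by the rule. Dio2 was level (180.0 and 180.4), and Ucp1 was below the floor on both (76.2 and 1.9), as were the other 3. Stromal and immune markers differed less. Endothelial genes summed to 5113.7 and 2877.2 with 1 of 8 lower by the rule (Cldn5, 773.8 and 255.7), though all 8 read lower. Fibroblast genes summed to 34653.6 and 26256.3 with 0 of 7 lower by the rule. Of these 7, 6 read lower, Dcn by 2.40-fold (7005.2 and 2924.9). Macrophage genes summed to 14534.5 and 12919.8 with 0 of 7 lower by the rule, and 4 read lower. Housekeeping genes summed to 41837.6 and 40898.0 with 0 of 7 lower by the rule, and 5 read lower. Whether the lower adipocyte signal had a part in the muscle values was not tested.

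**Figure D4:**
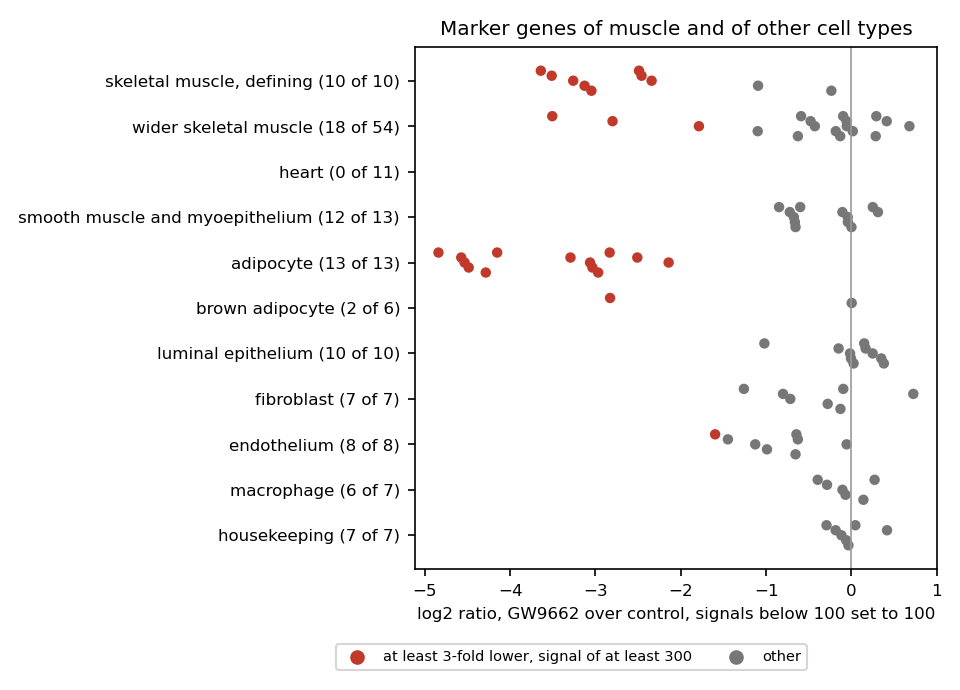
Log2 ratio of GW9662 over control, with signals below 100 set to 100, for each listed gene that reached 100 in either group, and in brackets the number of these out of all measured. Red points mark genes lower by the rule. Of the 10 defining muscle markers, all of them among the 49 genes, 8 are red, as are 13 of 13 adipocyte markers, and smooth muscle and luminal epithelial genes hold none.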

How the data were processed

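RNA pooled from 5 mice per diet was labelled and hybridized to 1 Affymetrix mouse array per diet. Raw data came from Affymetrix GeneChip Operating Software, and the values the authors deposited are a linear signal intensity for each probe set. The sources used here do not name the method that combined probe pairs, and detection calls were not used. The size rule (fold and signal minimum) follows the study's methods. Means trimmed by 2% at both ends were alike (498.4 and 499.0), and the signals were used without further scaling.

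Of 22690 probe sets, 20380 were annotated to 1 gene. Symbols came from the platform annotation and were updated through gene identifiers to RefSeq names of GRCm38.p6. Where a gene had several probe sets, the one brightest on average over both arrays stood for it. Control values of 0 (3 probe sets) were read as 0.1 in log2 ratios. The 49 genes, their roles, the marker lists and the naming rule were chosen with earlier results of these data known. It takes all listed genes with a signal of at least 300 and the brightest of the others. Probe sets are not replicates, and the number of arrays limits the precision of every value. The counting rule was tested on simulated data. Alternatives covered the signal minimum, fold, floor, probe set and scaling. The scripts ran in Python 3.11.15 with pandas 2.3.3, numpy 2.4.6 and, for plots, matplotlib 3.10.9.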

Additional observations from a re-analysis of the deposited data

How the results depend on the processing

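The count of 12 muscle genes at least 3-fold lower stayed 12 after centring and after quantile normalization. With the probe set brightest on the control array it was also 12. The count was fixed at 12 for 2-fold and 2.5-fold, because every muscle gene that reached 300 was already in it. It was 11 with the median over probe sets, 16 with a signal minimum of 200 and 20 with a minimum of 100. At 100, member probe sets counted 23 in place of 13, wider muscle genes 5 in place of 3 and all genes 248 in place of 162. All genes counted 283 at 2-fold. At these lower minimums the listed signals set the fold, although many dimmer values lie under the floor. With the median over probe sets, the log2 ratio of Mb was 0.19 in place of -1.91, because its bright probe set was averaged with one at background. Over the 19 muscle genes with a mean signal of at least 100, which passed through the control array, the median log2 ratio was -2.34. It was -1.51 with a floor of 200, -1.58 with a minimum mean of 50 and -3.05 with a minimum mean of 300. For fast genes it was -2.49, and it was -3.17 with a floor of 50, -2.05 with a floor of 200 and -3.05 with a minimum mean of 300. No slow, cardiac or developmental gene had a mean signal of 100, so their planned medians and the difference from fast genes could not be computed. No paired analysis was possible because each diet has 1 array.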
